A study of Mus musculus with 21 samples.

Results

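A set of 9 cathepsin genes and the gene of cystatin C, an inhibitor of cysteine cathepsins, were followed in the brain of mice that make poly-GA in excitatory neurons. The genes were Ctsa, Ctsb, Ctsc, Ctsd, Ctsf, Ctsh, Ctsl, Ctss, Ctsz and Cst3. They were chosen by name, without a cut on measured values but with earlier results of these data known. All 10 had a row in the table of 64361 genes and all 10 passed the filter on low counts in every comparison. RNA of cortex and hippocampus was measured by prime-seq, which sequences bulk RNA from the end next to the poly(A) tail, in 21 libraries from 11 mice. The cortex gave 5 control and 6 GA-Camk2a libraries, the hippocampus 4 control and 6 GA-Camk2a libraries, and 10 mice gave both tissues. A figure legend of the article gives the smaller control group to cortex instead. The labels were followed here, and hippocampus markers summed to 97.7 to 156 CPM in the libraries labelled cortex and to 551 to 726 CPM in those labelled hippocampus.

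GA-Camk2a mice carry a transgene for GFP-tagged poly-GA, a dipeptide repeat protein made from the expanded repeat of C9orf72, and a Cre recombinase under the Camk2a promoter that switches it on in excitatory neurons. Neurons are therefore the intended site of expression. All mice had a C57BL/6J background and were killed at 30 to 40 weeks of age, when the transgenic mice were at the humane endpoint. The control group is labelled ctrl only, so their alleles are not given for these libraries, although the article calls the controls of this line Camk2a mice in a legend on stained sections. GFP checks nothing here, because its row held 17 counts over all libraries and reached 2 in control cortex against 4 in GA-Camk2a cortex.

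Cathepsins are proteases that digest proteins inside endosomes and lysosomes. They are made as inactive precursors, are sorted to the acidic compartments by receptors and mature there by cleavage. Cystatin C, encoded by Cst3, is a secreted inhibitor of the papain-like cysteine cathepsins and does not inhibit the aspartic protease cathepsin D. In the brain, microglia are rich in cathepsins, above all cathepsin S, and astrocytes and microglia make cystatin C. TFEB and related factors drive many lysosomal genes through a short DNA element, and PU.1 is the lineage factor of microglia and macrophages.

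Short matches to those elements were looked for in promoters, since 9 of the 10 genes were higher in GA-Camk2a mice. RefSeq promoters on GRCm38.p6 were found for 8 of the 10 genes, with none for Ctsb and Ctsh. The window ran from 250 bases before to 20 bases after the start site and was 270 bases long. The searched letters were CACGTG (E-box), TCACGTGA (the core of the lysosomal element, which contains the E-box), the core with a G before and a C after it (the full palindrome) and GAGGAAGT (a PU.1 core), on both strands. The 3 promoters below are shown because they hold the lysosomal core or a PU.1 core at the start site, and capitals mark the matches. The Ctsa promoter is the second of its 2 start sites, at chr2:164833523-164833792 on the plus strand. The Ctsd promoter lies at chr7:142387808-142388077 on the minus strand and the Ctss promoter at chr3:95526536-95526805 on the plus strand. All are written 5′ to 3′ along the gene.
Ctsa: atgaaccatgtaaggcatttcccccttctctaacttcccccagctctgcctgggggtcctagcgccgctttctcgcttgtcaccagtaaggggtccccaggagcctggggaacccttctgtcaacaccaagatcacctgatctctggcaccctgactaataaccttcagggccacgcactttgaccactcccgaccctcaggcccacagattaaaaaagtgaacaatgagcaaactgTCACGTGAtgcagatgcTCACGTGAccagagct
Ctsd: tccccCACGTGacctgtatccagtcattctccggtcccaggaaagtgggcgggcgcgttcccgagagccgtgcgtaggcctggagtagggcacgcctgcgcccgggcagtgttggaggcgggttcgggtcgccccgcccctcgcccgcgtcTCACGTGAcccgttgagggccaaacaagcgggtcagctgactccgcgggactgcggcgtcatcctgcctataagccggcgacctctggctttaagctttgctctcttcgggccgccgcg
Ctss: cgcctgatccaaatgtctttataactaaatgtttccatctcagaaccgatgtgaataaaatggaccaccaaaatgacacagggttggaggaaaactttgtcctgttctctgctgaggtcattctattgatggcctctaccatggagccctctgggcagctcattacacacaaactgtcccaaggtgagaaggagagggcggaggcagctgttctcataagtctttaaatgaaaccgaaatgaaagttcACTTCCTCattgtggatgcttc

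In the Ctsa promoter the lysosomal core began 13 bases before the start site and again 4 bases after it. Ctsd held 1 core, beginning 99 bases before the start site, and a further E-box 245 bases before it. These 2 genes were the ones with the core, which was in 2 of the 9 windows of the 8 genes, against 0.904% of 32851 promoters of the same length. The E-box alone was also present in Ctsf and Ctsl, which makes 4 of 9 windows against 6.57% of all promoters. The full palindrome was in 0 of the 9 windows and in 0.310% of all promoters. The PU.1 core was written on the opposite strand in Ctss, where it began 2 bases before the start site, and in Ctsc, where it began 151 bases before it. It was in 2 of the 9 windows and in 2.72% of all promoters. No searched motif was in the windows of Ctsz and Cst3. A match describes letters in this window and is not a site of binding. Whether the matches have a part in the rise of these genes was not tested.

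Levels are given as CPM, counts scaled to a common library size after TMM scaling over all libraries. Library totals ranged from 1048201 to 5888102 counts with a median of 1975173. Totals set the precision of the low genes, and Ctsc was the lowest of the set in counts, with 8 to 24 counts per library in control cortex. Together the 10 genes took 0.450 to 0.524% of all counts in control cortex and 0.751 to 0.958% in GA-Camk2a cortex. In hippocampus they took 0.456 to 0.515% in controls and 0.627 to 0.857% in GA-Camk2a mice, again without overlap. The 9 cathepsins without Cst3 summed to 1373 ± 124 CPM (SD, n = 5) in control cortex, 2769 ± 374 (SD, n = 6) in GA-Camk2a cortex, 1254 ± 105 (SD, n = 4) in control hippocampus and 2265 ± 257 (SD, n = 6) in GA-Camk2a hippocampus.

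A few libraries stood apart in genes of other cells or regions. Transcripts of choroid plexus (Ttr, Folr1, Kl) summed to between 1702 and 54326 CPM in GA-Camk2a hippocampus and between 1782 and 33012 CPM in control hippocampus. In cortex, GA-Camk2a mouse 34 had 8231 CPM and all other libraries 1686 to 2739, and no fit with this sum as a covariate was made there. Rorb, taken as a cortex marker, was over 1000 CPM in 3 hippocampus libraries, those of control mouse 11 and GA-Camk2a mice 16 and 30. The 4 cortex markers together summed to 1492 to 5264 CPM in these 3 libraries, above the 237 to 714 CPM of the cortex libraries themselves, so the level is higher than cortex tissue gave here. Monocyte and neutrophil markers summed to 498 CPM in the hippocampus of GA-Camk2a mouse 41 and to no more than 29.0 in any other library. The Y-linked transcript Ddx3y was low, and Xist above 20 CPM, in 1 of the 5 control mice (31) and in 2 of the 6 GA-Camk2a mice (16 and 35). On total counts, Ddx3y was at 3.30 to 5.39 CPM in the libraries of these mice and at 16.2 to 46.3 in the others. Xist was at 22.7 to 97.5 CPM in the libraries of these mice and at 6.17 to 17.6 in the others. Mixed sex of both groups, in unequal shares, is inferred from these 2 transcripts alone. The hippocampal genotype effect of the 10 members was also computed without the Rorb-high libraries, with the choroid plexus sum as a covariate and without the Xist-high mice. The first 2 of these settings kept all 9 calls, and the last lost Ctsa and Cst3. For the genes outside the set named below, values under these settings are not given.

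To ask which cathepsins follow neuronal poly-GA expression, the genotypes were compared within each tissue. All genes but Ctsf were higher in GA-Camk2a mice in both tissues (edgeR quasi-likelihood test, adjusted p under 0.05 over all genes tested). That is 9 of 10 genes in cortex, where 6.35% of 13058 tested genes were called higher, and 9 of 10 in hippocampus, where 4.97% of 14884 were. No member was called lower, against 6.17% of tested genes in cortex and 5.97% in hippocampus. In bulk RNA, more cells of a type and more RNA per cell cannot be told apart. Every GA-Camk2a library was above every control library for 8 members in cortex, a pattern seen in 3.42% of tested genes, and for 10 in hippocampus, seen in 4.66%. The median log2 fold change of the members was 1.01 in cortex and 0.93 in hippocampus, against -0.01 and 0.02 over all tested genes. The largest change was that of Ctss in both tissues, followed by Ctsz in cortex and by Ctsc, Ctsh and Ctsz, within one SE of each other, in hippocampus.

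**Figure D1:**
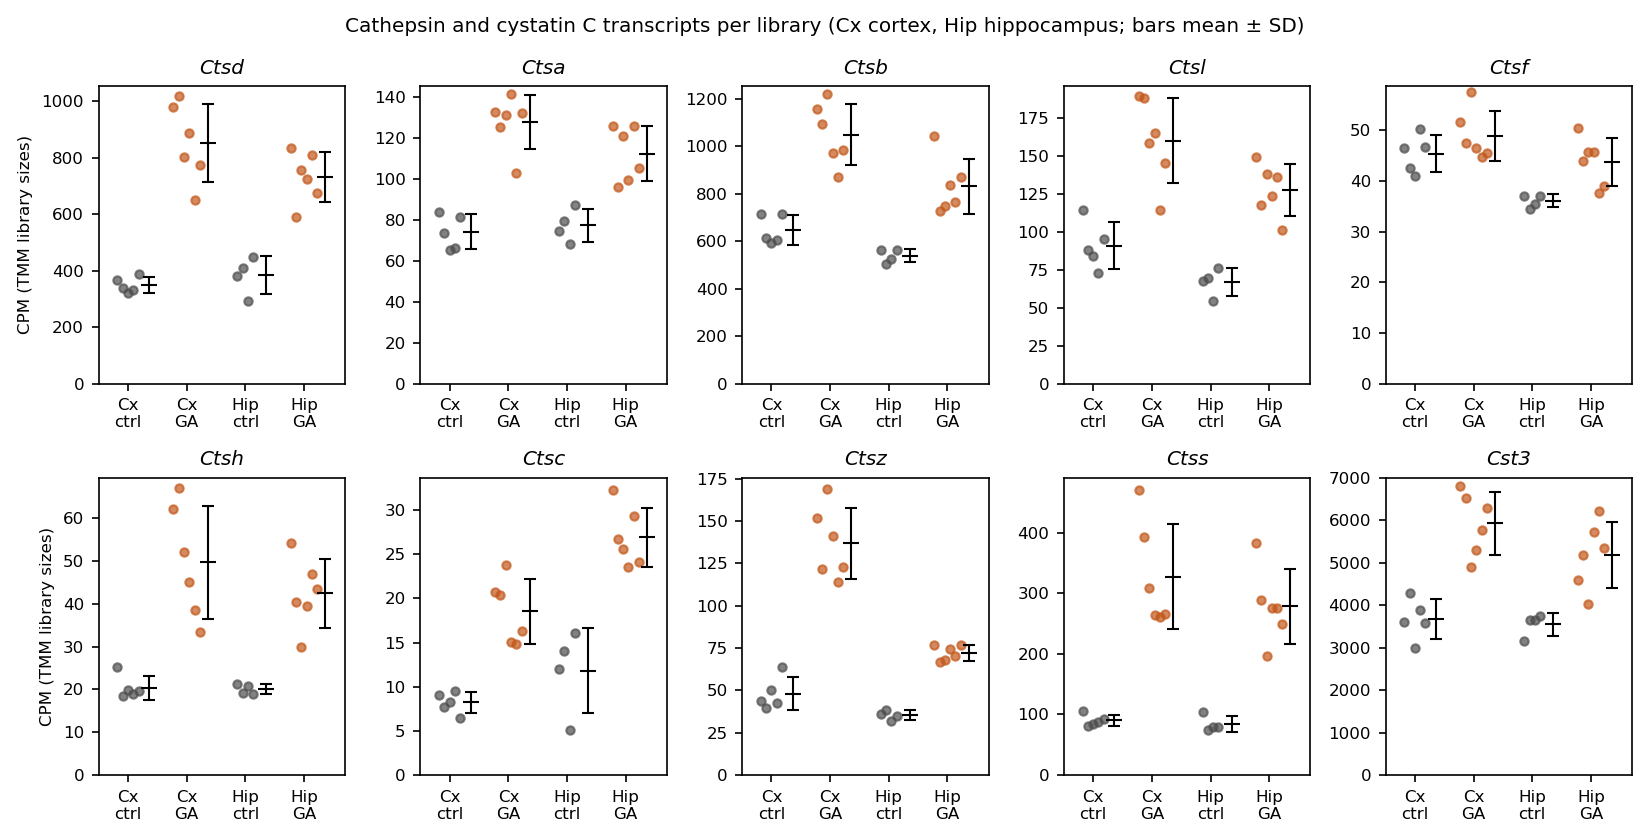
CPM of each gene (vertical axis, linear, from 0) in every library of the 4 groups, with control libraries in grey, GA-Camk2a libraries in orange and the group mean ± SD beside the points. In hippocampus all orange points of a gene lie above its grey points. In cortex they do so except for Ctsf and for Ctsl in 1 library. Ctss goes from 81.2 to 105 CPM in control cortex to 260 to 471 in GA-Camk2a cortex.

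Cathepsin D, the aspartic protease of the lysosome and an activator of other lysosomal enzymes, was encoded by one of the strongly changed transcripts. In control cortex, Ctsd was at 367, 339, 320, 332 and 389 CPM, and the GA-Camk2a libraries ranged from 649 to 1018 with a median of 846. The lowest GA-Camk2a library was thus well above the highest control, and the log2 fold change was 1.28 ± 0.11 (SE, adjusted p by edgeR = 3.79e-08). Control hippocampus gave 382, 410, 292 and 450 CPM and GA-Camk2a hippocampus 590 to 834 with a median of 740. The hippocampal groups did not overlap either, with a log2 fold change of 0.94 ± 0.12 (SE, adjusted p by edgeR = 0.000107). Control mouse 31 gave the lowest hippocampal value, as it did for 5 of the 10 members in that tissue.

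Cathepsin A is a serine carboxypeptidase that also protects the lysosomal enzymes Neu1 and Glb1 in a complex. Ctsa was at 83.9, 73.5, 65.2, 66.1 and 81.4 CPM in control cortex and at 103 to 141 with a median of 131 in GA-Camk2a cortex. The groups were separate, and the log2 fold change was 0.78 ± 0.10 (SE, adjusted p by edgeR = 1.69e-05). Hippocampal controls had 74.2, 79.2, 68.2 and 86.9 CPM, and GA-Camk2a libraries had 96.1 to 126 with a median of 113. The change there was 0.54 ± 0.11 on the log2 scale (SE, adjusted p by edgeR = 0.00385). Without the mice with high Xist it was 0.40 with an adjusted p of 0.0914 in the same edgeR test. Thinning all libraries to the smallest one gave 0.52, also not called (edgeR adjusted p = 0.0529).

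Cathepsins B and L are the widely expressed cysteine proteases that carry much of lysosomal protein breakdown. Ctsb was at 714, 612, 591, 603 and 714 CPM in control cortex and at 870 to 1217 with a median of 1038 in GA-Camk2a cortex. Control hippocampus had 563, 505, 526 and 562 CPM, and GA-Camk2a hippocampus 727 to 1041 with a median of 799. In both tissues every GA-Camk2a library was above every control library. The log2 changes of Ctsb were 0.69 ± 0.10 in cortex and 0.63 ± 0.10 in hippocampus (SE, adjusted p by edgeR = 3.59e-05 and 0.000653).

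Ctsl was at 114, 88.0, 83.9, 73.0 and 95.1 CPM in control cortex, and at 114 to 189 with a median of 162 in GA-Camk2a cortex. Here the groups touched, since GA-Camk2a mouse 35 had 114.1 CPM and control mouse 11 had 114.2. Ctsl still passed the cortical test, and its log2 change was 0.82 ± 0.12 (SE, adjusted p by edgeR = 9.72e-05). In hippocampus the controls had 67.6, 69.5, 54.1 and 75.8 CPM and the GA-Camk2a libraries 101 to 149 with a median of 130. That difference was 0.92 ± 0.11 on the log2 scale, without overlap (SE, adjusted p by edgeR = 7.42e-05).

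Cathepsin S is a cysteine protease of microglia and other antigen-presenting cells that stays active at neutral pH and trims the invariant chain of MHC class II. Ctss had the largest rise of the set in both tissues. It was at 105, 81.2, 84.6, 87.2 and 92.3 CPM in control cortex and at 260 to 471 with a median of 288 in GA-Camk2a cortex. In hippocampus the controls had 103, 75.0, 78.9 and 79.5 CPM and the GA-Camk2a libraries 196 to 383 with a median of 276. GA-Camk2a mouse 16 gave the highest value in each tissue, and even the lowest transgenic library had well above the highest control level. The log2 fold changes were 1.86 ± 0.14 in cortex and 1.74 ± 0.16 in hippocampus (SE, adjusted p by edgeR = 1.04e-08 and 1.04e-05), or 3.63-fold and 3.33-fold. Among tested genes, 0.398% had a larger log2 fold change in cortex and 0.504% in hippocampus.

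Cathepsin Z (also called X) is a carboxypeptidase that is abundant in myeloid cells. Ctsz was at 43.5, 39.6, 50.2, 42.3 and 63.8 CPM in control cortex and at 114 to 169 with a median of 132 in GA-Camk2a cortex. Control hippocampus had 36.2, 38.6, 32.1 and 34.6 CPM, and GA-Camk2a hippocampus 66.6 to 76.8 with a median of 72.3. The 6 hippocampal GA-Camk2a libraries were close together, with a coefficient of variation of 6.25%, against 15.4% in cortex. The rise was 2.74-fold in cortex, 1.46 ± 0.13 on the log2 scale, and 2.03-fold in hippocampus, 1.02 ± 0.10 (SE, adjusted p by edgeR = 6.86e-08 and 1.57e-05).

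Cathepsin H is an aminopeptidase. Ctsh was at 25.3, 18.4, 19.8, 19.0 and 19.6 CPM in control cortex and at 33.3 to 67.0 with a median of 48.6 in GA-Camk2a cortex. Hippocampal controls had 21.3, 19.2, 20.9 and 19.0 CPM and GA-Camk2a libraries 29.9 to 54.2 with a median of 41.9. The controls lay within a narrow range, apart from mouse 11 in cortex, while the transgenic libraries were spread out. The log2 fold change was 1.29 ± 0.18 in cortex and 1.09 ± 0.15 in hippocampus (SE, adjusted p by edgeR = 3.10e-05 and 0.000326). With counts thinned to the smallest library, the hippocampal change of Ctsh was 0.73 and not called (edgeR adjusted p = 0.0841).

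Cathepsin C, also known as dipeptidyl peptidase I, activates the serine proteases of immune cell granules. Ctsc was at 9.10, 7.74, 8.32, 9.52 and 6.43 CPM in control cortex and at 14.9 to 23.7 with a median of 18.3 in GA-Camk2a cortex. In hippocampus, controls had 12.1, 14.1, 5.07 and 16.1 CPM, the third of them from 9 counts of mouse 31, and GA-Camk2a libraries had 23.5 to 32.3 with a median of 26.1. Both pairs of groups were separate despite the low counts. Ctsc rose 2.30-fold in cortex and 2.13-fold in hippocampus (edgeR adjusted p = 0.000257 and 0.00255). It was the member most sensitive to depth. When counts were thinned to the smallest library, its log2 fold change was 0.91 in cortex, with an edgeR adjusted p of 0.0815, and 3.06 in hippocampus. The thinned hippocampal value was called but is far above the 1.09 of the full counts, so it is not taken as the size of the change.

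Cathepsin F, another papain-like cysteine protease of the lysosome, was the exception. Ctsf was at 46.5, 42.5, 40.9, 50.2 and 46.7 CPM in control cortex and at 44.7 to 57.6 with a median of 47.0 in GA-Camk2a cortex, where 2 of the 6 libraries lay above all controls. The log2 fold change was 0.10 ± 0.11 with an approximate 95% interval of -0.11 to 0.32 (edgeR adjusted p = 0.605). Control hippocampus had 37.1, 34.5, 35.5 and 37.1 CPM and GA-Camk2a hippocampus 37.6 to 50.4 with a median of 44.9. All transgenic libraries were above all controls there, though the nearest pair differed by 0.02 on the log2 scale. The hippocampal change was 0.28 ± 0.10 and did not pass the test (SE, adjusted p by edgeR = 0.0722). With a minimum count of 30 in the filter the adjusted p was 0.0414.

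Cystatin C was encoded by a highly counted transcript. Cst3 was at 3609, 4272, 2990, 3886 and 3582 CPM in control cortex and at 4884 to 6810 with a median of 6031 in GA-Camk2a cortex. Hippocampal controls had 3157, 3636, 3640 and 3752 CPM and GA-Camk2a libraries 4034 to 6212 with a median of 5263. The groups did not overlap, and the log2 fold changes were 0.71 ± 0.10 in cortex and 0.55 ± 0.11 in hippocampus (SE, adjusted p by edgeR = 4.88e-05 and 0.00422). In hippocampus, Cst3 was the other gene whose call was lost without the mice with high Xist (log2 fold change 0.50, edgeR adjusted p = 0.0757).

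**Figure D2:**
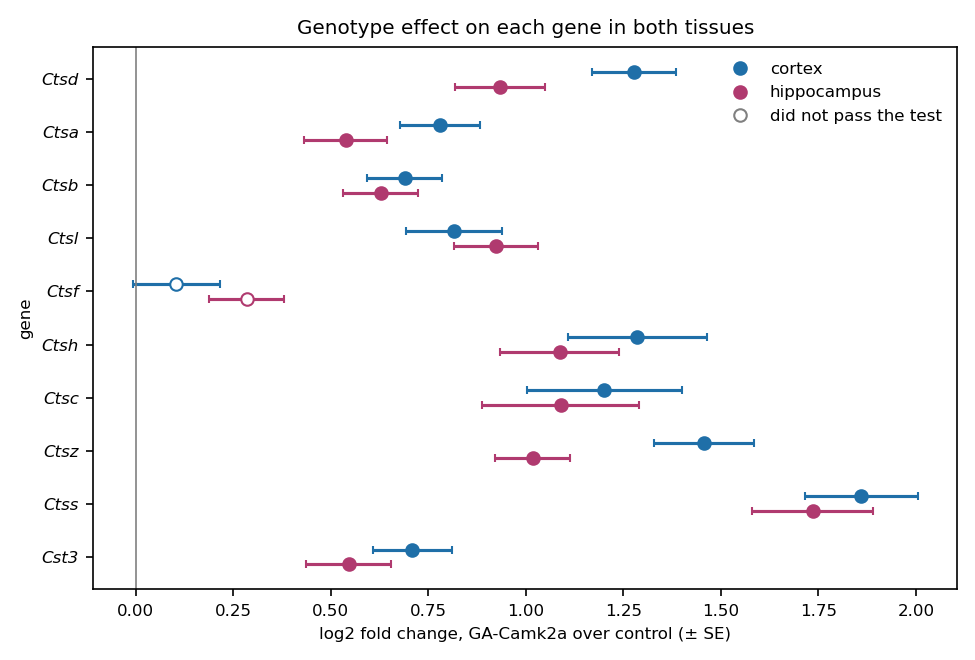
Log2 fold change of each gene between GA-Camk2a and control mice (horizontal axis, ± SE) in cortex (blue) and hippocampus (pink), with open circles where the edgeR test was not passed. Ctss is farthest to the right at 1.86 and 1.74, and Ctsf is the one open gene, at 0.10 and 0.28.

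Within batches the direction was the same. The labels put each library in batch 1 or 2 and both genotypes were in both. In cortex, 9 members were called in batch 1 alone and 8 in batch 2 alone, where Ctsc had a log2 fold change of 0.96 and an edgeR adjusted p of 0.250. In hippocampus, 9 were called in batch 2 alone and 4 in batch 1 alone, namely Ctsd, Ctsl, Ctss and Ctsz. Over all genes, 876 were called in cortical batch 1 alone and 230 in cortical batch 2 alone. The hippocampal numbers were 115 in batch 1 alone and 681 in batch 2 alone, against 1628 with both batches. The 3 hippocampal libraries with high Rorb were all in batch 1. The 5 members that lost their call in hippocampal batch 1 had log2 fold changes there of 0.50 for Ctsa, 0.62 for Ctsb, 0.92 for Ctsc, 1.02 for Ctsh and 0.45 for Cst3. Their edgeR adjusted p ranged from 0.140 to 0.341 in that batch. Leaving out any 1 library kept all 9 calls in each tissue.

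The ratio of each cathepsin to Cst3 within a library does not depend on library scaling. It is given as a description of the log2 ratio of counts. Relative to Cst3, GA-Camk2a mice had more Ctss by 1.14 in cortex and by 1.17 in hippocampus, and the ratio of every transgenic library was above that of every control in both tissues. The ratio of Ctsz was higher by 0.83 in cortex, without overlap, and by 0.49 in hippocampus, where the groups overlapped. For Ctsd the differences were 0.58, without overlap, and 0.40, with overlap. For Ctsh they were 0.56, with overlap, and 0.52, without overlap. Ctsc had 0.47 and 0.77, both with overlap.

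For other cathepsins the ratio changed less. The ratio of Ctsb to Cst3 differed by 0.00 between genotypes in cortex and by 0.08 in hippocampus, and that of Ctsa by 0.09 and 0.00. For Ctsl the values were 0.12 and 0.40. All 3 overlapped between genotypes in both tissues. The ratio of Ctsf fell by 0.59 in the mean of cortex and by 0.26 in the mean of hippocampus, again with overlapping groups. The ratio of Ctsf to Cst3 was the one whose mean was lower in GA-Camk2a mice in both tissues.

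**Figure D3:**
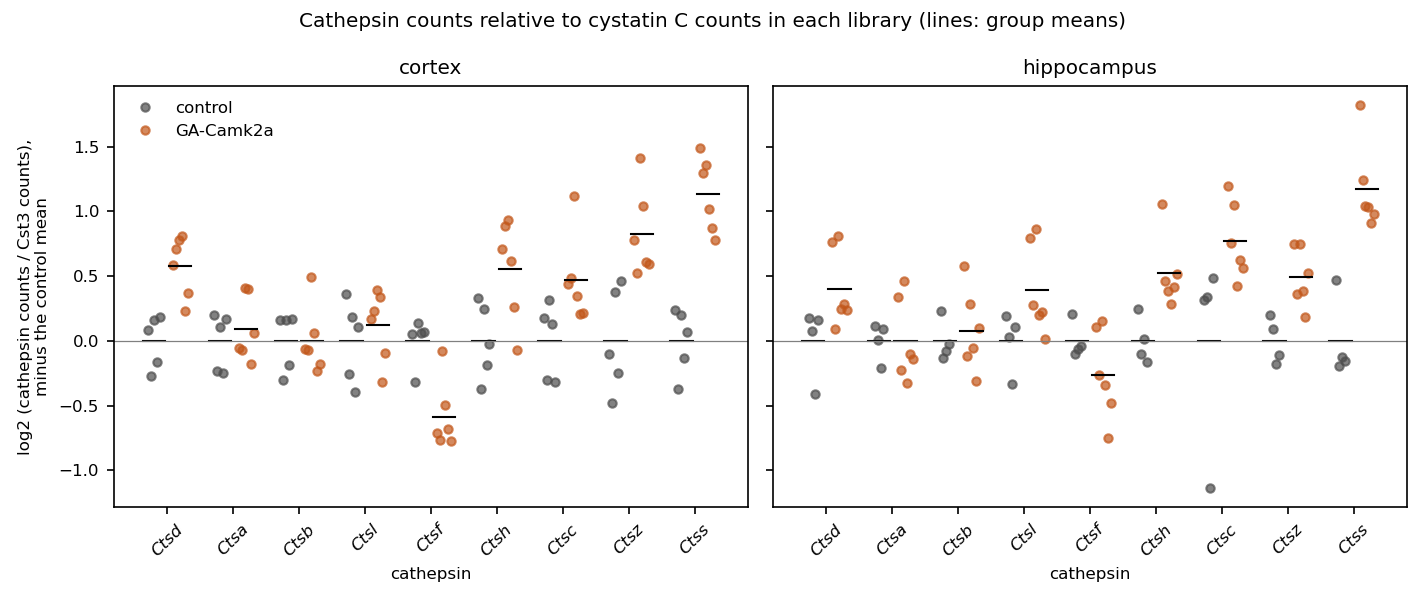
Log2 ratio of each cathepsin's counts to the Cst3 counts of the same library (vertical axis), minus the mean of the control libraries of that tissue, with one point per library and lines for group means. The orange points of Ctss sit above all grey points in both panels, with means of 1.14 and 1.17, while those of Ctsb and Ctsa are centred near 0.

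The genes did not rank the mice in one order. In cortex, GA-Camk2a mouse 35 had the lowest level of its group for 8 of the 10 members and the highest for none. In hippocampus, GA-Camk2a mouse 16 had the highest level of its group for 9 of the 10, all but Cst3. Mouse 35 had the lowest hippocampal value for 1 member, Ctsf, and the highest for 1, Cst3, so its low cortical rank was not repeated in the other tissue. Mouse 16 was one of the libraries with high Rorb and choroid plexus transcripts in hippocampus, and the part of these cells in its values was not tested.

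Over the 21 libraries the correlation of log2 CPM between members ranged from 0.27 to 0.97 in 45 pairs. These values describe libraries that share genotype, tissue and depth. After group and batch means were removed, r ranged from -0.18 to 0.85. For each member the 2 most similar genes outside the set were taken among 8403 genes with a mean log2 CPM of at least 4. Ctss was most like C1qc (r = 0.99) and Trem2 (r = 0.99), and these stayed at 0.88 and 0.85 after group and batch means were removed. Ctsh was most like Trem2 (r = 0.97, 0.84 after removal) and Cyba (r = 0.97, 0.80 after removal). Ctsb was most like Cd68 (r = 0.96, 0.86 after removal) and Cd81 (r = 0.96, 0.80 after removal).

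C1qc and Trem2 were also the nearest genes of Ctsd, with r = 0.95 and 0.95, though with 0.57 and 0.50 after removal of the means. For Ctsz they were C1qa (r = 0.95) and Cd68 (r = 0.93), with 0.24 and 0.54 after removal. Ctsl was closest to Lgmn (r = 0.94, 0.67 after removal), the gene of a protease that processes cathepsins, and to Chil1 (r = 0.92, 0.77 after removal). Chil1 (r = 0.93, 0.60 after removal) and Gusb (r = 0.92, 0.46 after removal) were closest to Ctsa. Fxyd1 (r = 0.94, 0.68 after removal) and Cd63 (r = 0.93, 0.68 after removal) were closest to Ctsc. Cst3 was closest to Tsc22d4 (r = 0.95, 0.75 after removal) and Prdx6 (r = 0.94, 0.73 after removal). For Ctsf the nearest genes were Gm12166 (r = 0.86, 0.63 after removal) and Gm7986 (r = 0.84, 0.59 after removal).

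Markers of some cell types moved with the genotype. Of 11 microglial markers, 8 were higher in each tissue, and their sum was 468 to 565 CPM in control cortex, 1324 to 2017 in GA-Camk2a cortex, 428 to 504 in control hippocampus and 837 to 1327 in GA-Camk2a hippocampus. C1qa, C1qb, C1qc and Tyrobp had cortical log2 changes of 1.72 to 1.99 and hippocampal ones of 1.48 to 1.60, near that of Ctss. Csf1r, Cx3cr1 and Aif1 had 0.88 to 0.91 in cortex and 0.67 to 1.07 in hippocampus. P2ry12, a homeostatic microglial receptor, had 0.07 and -0.16 and did not pass the test, nor did Tmem119 and Itgam. Astrocyte markers were higher for 6 of 8 genes in cortex and 7 of 8 in hippocampus, with sums of 1938 to 2381 CPM in control and 3131 to 4364 in GA-Camk2a cortex, and of 2056 to 2274 in control and 3466 to 4491 in GA-Camk2a hippocampus.

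Excitatory neuron markers were lower for 4 of 5 genes in each tissue, with sums of 1919 to 2168 CPM in control and 1215 to 1614 in GA-Camk2a cortex, and of 1995 to 2461 in control and 1006 to 1324 in GA-Camk2a hippocampus. Oligodendrocyte markers were higher for 1 of 6 in cortex and 0 of 6 in hippocampus. Inhibitory neuron markers were higher for 1 of 5 in cortex and 2 of 5 in hippocampus. Of 3 endothelial markers, 0 were called in either tissue. For choroid plexus, 0 of 2 tested markers were called in cortex and 0 of 3 in hippocampus. Of 4 T and NK cell markers, 0 had enough counts to be tested. Of 4 perivascular macrophage markers, 1 had enough counts to be tested in cortex and 2 in hippocampus. Pf4 was higher in cortex and both Mrc1 and Pf4 in hippocampus. The sum of the 4 markers was 11.6 to 21.6 CPM in GA-Camk2a cortex and 4.85 to 15.2 in control cortex, with overlap. It was 9.10 to 98.4 CPM in GA-Camk2a hippocampus and 4.98 to 8.56 in control hippocampus. The 98.4 was mouse 41 alone, and the other 5 GA-Camk2a hippocampi were at 9.10 to 24.0 CPM. No marker of these lists was at 0 in every library of a group. The part of cell composition in the cathepsin levels was not tested.

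Levels were also compared between the tissues. In controls, 2 of the 10 members were lower in hippocampus than in cortex, where 7.6% of 14435 tested genes were called lower. Ctsl had a log2 difference of -0.39 ± 0.12 (SE, adjusted p by edgeR = 0.0338) and Ctsz of -0.44 ± 0.14 (SE, adjusted p by edgeR = 0.0356). With the mouse as a block, Ctsz was no longer called (log2 difference -0.33, edgeR adjusted p = 0.138) and Ctsl was (-0.42, adjusted p = 0.0277). Without the hippocampal library of control mouse 11, which had high Rorb, neither was called (edgeR adjusted p = 0.138 for Ctsl and 0.118 for Ctsz). The other 8 members did not pass the test, with log2 differences from -0.34 for Ctsf to 0.67 for Ctsc. The value of Ctsc was 0.31 with the mouse as a block, and without the hippocampal library of control mouse 31 it was 0.81 and called (edgeR adjusted p = 0.0135). Ctsb was called with DESeq2 (-0.26, adjusted p = 0.0275) and without the cortex of control mouse 31 (-0.29, edgeR adjusted p = 0.0115). Ctsf was called without the batch term (-0.34, edgeR adjusted p = 0.0440) and without the cortex of control mouse 31 (-0.38, edgeR adjusted p = 0.0197). Neither the call of Ctsl nor that of Ctsz held under every setting, and no member was called higher, against 8.69% of tested genes.

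In GA-Camk2a mice the difference between tissues was clearer for Ctsz. It was lower in hippocampus by a log2 difference of -0.90 ± 0.10 (SE, adjusted p by edgeR = 6.19e-06), and in 6 of 6 mice, with differences from -1.32 to -0.68 within a mouse. The 4 control mice with both tissues had differences from -0.65 to -0.04. Ctsb was lower as well (-0.31 ± 0.10, edgeR adjusted p = 0.0243), also in 6 of 6 mice. Leaving out any one of 4 libraries, cortex of mouse 16 or hippocampus of mice 23, 30 or 34, ended the call of Ctsb (edgeR adjusted p from 0.0545 to 0.0875).

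Ctsc was higher in hippocampus than in cortex of GA-Camk2a mice, by 0.56 ± 0.15 (SE, adjusted p by edgeR = 0.00698) and in 6 of 6 mice. It was not called without the libraries of high Rorb (0.48, edgeR adjusted p = 0.0759). In this contrast 17.3% of 13098 tested genes were called higher and 15.9% lower, and 33.2% in either direction, so 1 higher and 2 lower members of 10 are near the background. Ctsl was lower by 0.29 and did not pass (edgeR adjusted p = 0.0624), but did with the mouse as a block (0.0452) and without any one of 3 libraries, cortex of mice 35 or 41 or hippocampus of mouse 35 (edgeR adjusted p from 0.0159 to 0.0457). Without the cortex of mouse 16 it was smaller (log2 difference -0.18, edgeR adjusted p = 0.226).

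**Figure D4:**
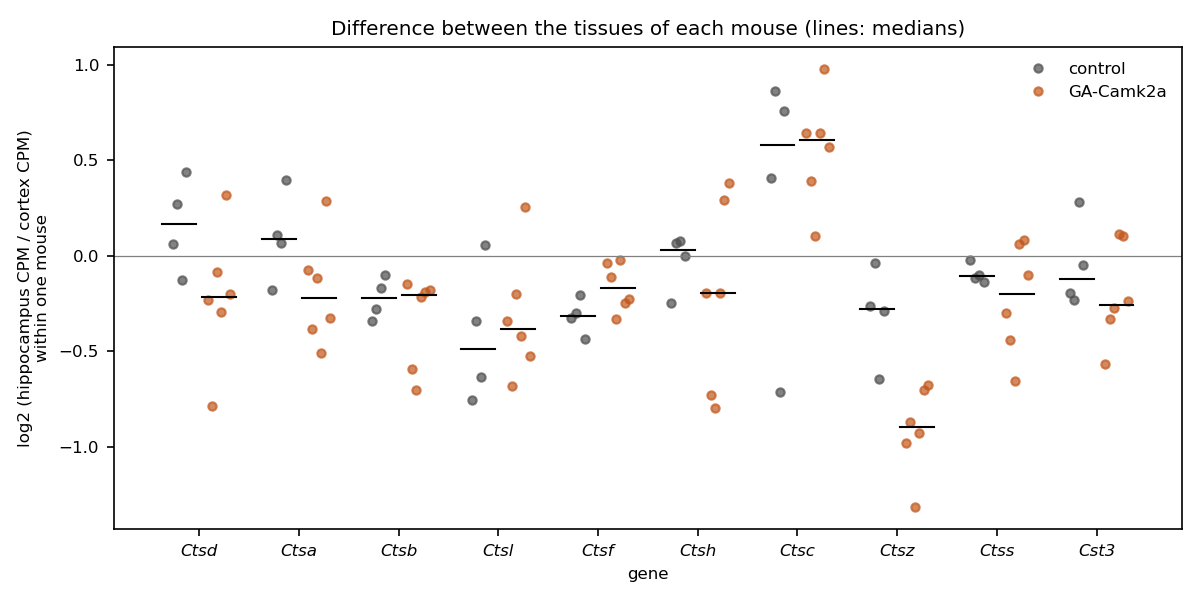
Log2 ratio of hippocampal to cortical CPM within each mouse that gave both tissues (vertical axis), for 4 control mice (grey) and 6 GA-Camk2a mice (orange), with lines for medians. The Ctsz points of GA-Camk2a mice all lie between -1.32 and -0.68, below 0 and below the control points, and the Ctsc points of GA-Camk2a mice all lie above 0.

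Whether the genotype effect itself differed between the tissues was tested as an interaction over all 21 libraries. It was called for 0 of the 10 members, against 0.4% of 14751 tested genes, 0.149% higher and 0.251% lower. The same count was 0 with DESeq2, and 2 of the 10 members had an unadjusted p under 0.05 in edgeR, as did 1479 of the 14751 tested genes, so this count is near the background. These were Ctsz, with a difference of -0.46 ± 0.17 on the log2 scale (SE, adjusted p by edgeR = 0.308), and Ctsd, with -0.36 ± 0.16 (SE, adjusted p by edgeR = 0.445). Both had the larger rise in cortex. The approximate 95% interval was -0.79 to -0.13 for Ctsz and -0.67 to -0.04 for Ctsd. For Ctss, the difference was -0.14 with an interval of -0.60 to 0.31, so the data bound a tissue difference for this gene only loosely. Missing the threshold does not show equal responses.

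Of 13 other cathepsins, 12 had a row in the table, and 1 of these had enough counts to be tested. Ctso was higher in cortex (log2 fold change 0.59 ± 0.13, edgeR adjusted p = 0.00398) and had 0.32 ± 0.13 in hippocampus (SE, adjusted p by edgeR = 0.137). Ctsk, known from osteoclasts, had up to 28 counts in a library, and Ctse and Ctsg, known from immune cells, up to 36 and 3. All 3 maxima were in the hippocampus of GA-Camk2a mouse 41, the library with 498 CPM of monocyte and neutrophil markers. Ctsw, known from lymphocytes and natural killer cells, had at most 4 counts.

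Other cystatins changed in both directions. Cst7, which encodes cystatin F, an inhibitor of cathepsins inside immune cells, was at no more than 6.15 CPM in any control cortex and at 40.3 to 115 in GA-Camk2a cortex. It was at 2.06 to 5.43 CPM in control hippocampus and at 21.7 to 60.7 in GA-Camk2a hippocampus. The log2 fold changes were 3.87 ± 0.30 and 3.47 ± 0.34 (SE, adjusted p by edgeR = 8.82e-09 and 1.93e-05), larger than that of any member. Cstb, a cytosolic inhibitor, rose by less, 0.48 ± 0.10 and 0.38 ± 0.11 (SE, adjusted p by edgeR = 0.00187 and 0.0394). Cst6 fell by 0.88 in cortex (SE 0.17, edgeR adjusted p = 0.00167) and had -0.07 in hippocampus (edgeR adjusted p = 0.893). The difference of Cst6 between tissues was not called.

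Among 6 genes for processing and partner proteins, 2 were higher in each tissue. Lgmn, which encodes the processing enzyme legumain, had log2 fold changes of 0.69 ± 0.11 and 0.65 ± 0.09 (SE, adjusted p by edgeR = 0.000222 and 0.000347). Grn, the gene of the lysosomal protein progranulin, which cathepsins cleave, had 1.01 ± 0.13 and 0.86 ± 0.15 (SE, adjusted p by edgeR = 9.13e-06 and 0.00134). Psap, Neu1, Glb1 and Tpp1 did not pass the test in either tissue. Neu1 and Glb1, whose enzymes cathepsin A protects, had cortical log2 changes of 0.13 and 0.00 and hippocampal ones of -0.18 and 0.22.

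Of 9 genes for the sorting of lysosomal enzymes, 3 were called in cortex, where 12.5% of all tested genes were, and 2 in hippocampus, where 10.9% were. Scarb2, a lysosomal membrane protein that carries a hydrolase, was higher (0.40 and 0.49, edgeR adjusted p = 0.0389 and 0.0129). Sort1, the sorting receptor sortilin, was lower (-0.46 and -0.47, edgeR adjusted p = 0.0162 and 0.0113), and so was Sorl1 in cortex (-0.45, edgeR adjusted p = 0.0221). M6pr and Igf2r, the mannose 6-phosphate receptors, did not pass the test. Tfeb had 0.57 ± 0.26 and 0.49 ± 0.23 and did not pass (SE, adjusted p by edgeR = 0.162 and 0.198), nor did Tfe3 and Mitf, while Tfec was too low to test.

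**Figure D5:**
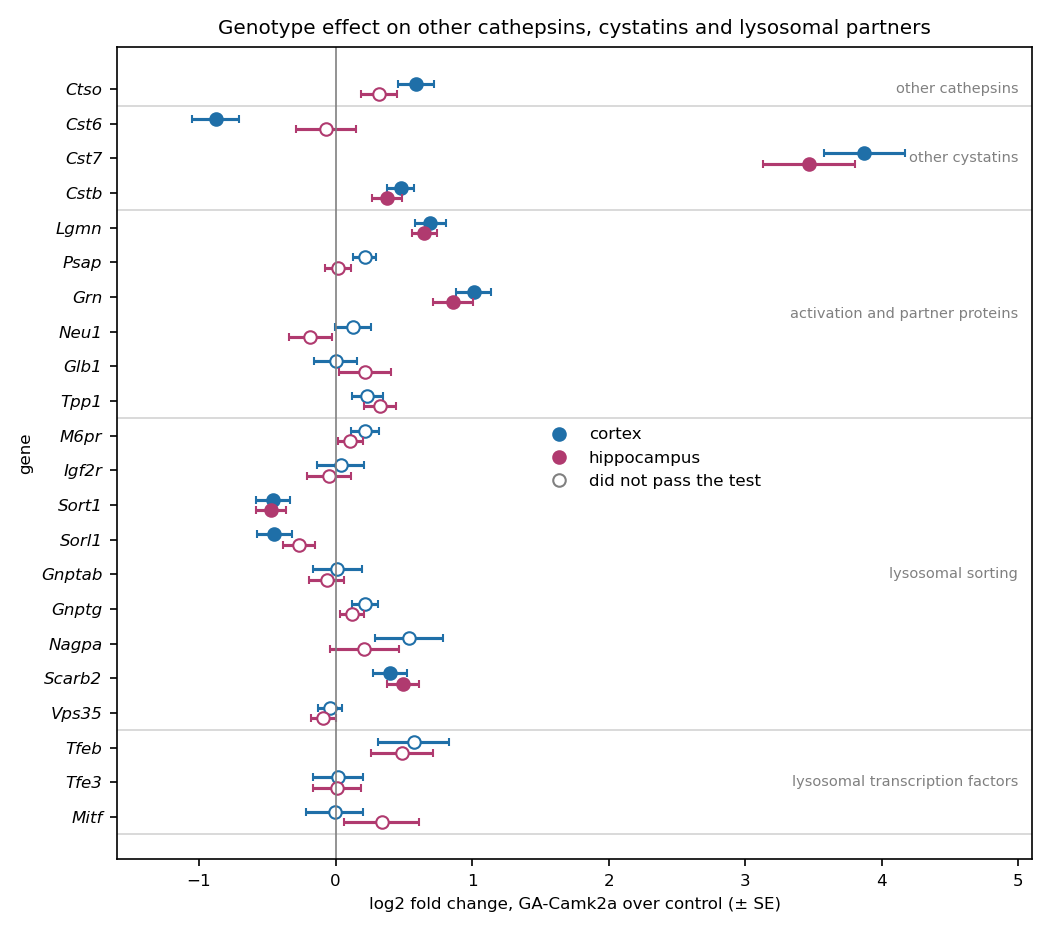
Log2 fold change between GA-Camk2a and control mice (horizontal axis, ± SE) of the tested genes from 5 lists, cortex in blue and hippocampus in pink, with open circles where the edgeR test was not passed. Cst7 lies far to the right at 3.87 and 3.47, while the 3 transcription factors and most sorting genes have open circles, with Tfeb at 0.57 and 0.49.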

How the data were processed

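Bulk prime-seq libraries were read from the table the authors deposited, with raw whole-number counts for each gene in each library. The authors aligned to GRCm39 and list zUMIs, and the table has a row for GFP. The submitters' processing notes list STAR, cutadapt 1.12, FastQC 0.11.8 and DESeq2 1.44. Whether molecular identifiers or reads were counted, and whether strand was used, is not given in the sources used here. Genes overlapping a member on the opposite strand (Neurl2 and Pltp for Ctsa, Fdft1 for Ctsb, Nelfcd for Ctsz) could therefore share counts with it. Overlaps were read from GENCODE vM21 (GRCm38), and symbols from a table of gene names matched by Ensembl number.

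Groups, mouse numbers and batch came from the labels. Genotypes were compared per tissue with edgeR 4.0.16 (R 4.3.3): TMM, filterByExpr with a minimum count of 10, quasi-likelihood F-test, batch as a covariate and Benjamini-Hochberg adjustment over all genes tested, with a threshold of 0.05. The study's methods name DESeq2. The standard error is the log2 fold change divided by the root of F. Tissues and the interaction were fitted alike. The code was tested on simulated data. Alternatives were DESeq2 1.42.0, limma 3.58.1 (voom), other scalings and filters, thinning, single batches, a mouse block and leaving out each library; those on Rorb, Xist and choroid plexus were chosen after seeing the data. Libraries with the same number come from the same mouse, which pairs the tissues; their deviations from group means correlated between -0.13 and 0.21. Replicates were separate mice and no 2 libraries were identical. Log2 CPM for correlations used a prior count of 2.

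Members, lists and the rule for named genes (members, list genes past the threshold, the 2 most similar genes) were chosen with earlier results of these data known. Ctsk, Ctse, Ctsg and Ctsw were named after their counts were seen. One marker of the microglial list is not reported here by name.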

Additional observations from a re-analysis of the deposited data

Results flagged for a closer look

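In 2 of 40 groups of libraries, 1 value stood far from the others of its group, measured as the gap to the nearest value over the group's range; chance gives about 1 in 20 such groups. Both were control mouse 11. Its cortex had 25.3 CPM of Ctsh, with the next control at 19.8 (gap over range 0.800). Its hippocampus had 103 CPM of Ctss, with the next control at 79.5 (gap over range 0.844). Both values stayed below every GA-Camk2a library of the same tissue.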

How the results depend on the processing

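Over 259 alternatives for the genotype effect of a member, other than leaving out a library, 247 kept direction and call, 11 lost the call, 1 gained it and 0 reversed. All 210 results that left out 1 library kept both. Ctsc in cortex had no value with a minimum count of 30, since it was then filtered out. The number of genes called in cortex, 1635, was 654 after thinning to the smallest library, 876 in batch 1 alone, 230 in batch 2 alone and 399 without the mice with high Xist, each with fewer counts or samples. It ranged from 1038 (without control mouse 31) to 1526 when 1 library was left out. In hippocampus, 1628 became 418 after thinning, 115 in batch 1 alone, 681 in batch 2 alone, 1005 without the libraries of high Rorb and 522 without the mice with high Xist, and ranged from 1038 (without control mouse 31; 1082 without control mouse 20) to 1831 when 1 library was left out. Members called in hippocampus fell from 9 to 4 in batch 1 alone and to 7 after thinning, which lost Ctsa and Ctsh.

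With the mouse as a replicate block, which applies to the tissue and interaction contrasts, 1 member in place of 2 was called between tissues in controls, and the interaction of Ctsc reversed from -0.12 to 0.19, uncalled in both. The block changed no other call but that of Ctsl in GA-Camk2a mice. Members called between tissues in controls were 0 without a filter and 0 without the libraries of high Rorb, and ranged from 0 (without cortex mouse 38 or hippocampus mouse 11) to 4 (without cortex mouse 31). Ctsh had a difference of -0.0049 there, which reversed to 0.0011 with upper quartile scaling and to 0.021 without a filter and ranged from -0.030 to 0.053 when 1 library was left out. The interaction was called for 59 genes, and for 36 without batch, 127 with DESeq2, 159 without a filter and 20 without the libraries of high Rorb, with 22 (without hippocampal control 31) to 66 when 1 library was left out. Uncalled interaction values that reversed when 1 library was left out ranged from -0.13 to 0.0092 for Ctsb, from -0.25 to 0.034 for Ctsc and from -0.26 to 0.043 for Ctss. The cause of these changes was not tested.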
